A study of Mus musculus with 35 samples.

Results

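The 10 genes described here encode the molecules by which white blood cells hold on to a vessel wall and leave it: Icam1, Vcam1, Selp and Sele on the vessel side, and Selplg, Itgal, Itgam, Itgb2, Itga4 and Itgb7 on the leukocyte side. They were taken by name, with no threshold on their values, from a table of 21203 protein-coding genes measured by RNA sequencing in mouse brain, and all 10 passed the filter on low counts, as did 17131 genes in all. The mice were male C57BL/6NCrl, 8 to 9 weeks old at the start, and received a closed head injury, in which an impactor strikes the intact skull. On day 5 after injury the left hippocampus was injected with PBS, with naïve mesenchymal stromal cells (MSCs) or with MSCs transfected with synthetic interleukin-4 mRNA (IL-4 MSCs). Tissue around the injection site, labelled left cortex, was taken 1 week post-injury (wpi), which was 2 days after treatment, or 3 wpi, which was 16 days after it. Sham mice had neither injury nor injection, so the effect of the impact and that of the needle cannot be told apart against Sham. The MSCs were primary cells of 1 commercial lot from the same mouse strain, their interleukin-4 came from mRNA that does not persist, and all mice were perfused before the tissue was cut, which washes out blood. There were 5 mice in each group except PBS at 3 wpi, with 4, and 2 of the 5 Sham mice were collected at week 1 and 3 at week 3. The libraries summed to 29838423 to 41554322 estimated counts (median 32655330), and 3 counts corresponded to 0.0722 to 0.101 CPM, the unit in which counts are scaled to library size. Values are CPM in each mouse, listed from replicate 0 upwards, unless TPM, which is also scaled for transcript length, is named.

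Leukocytes leave blood in steps. P-selectin (Selp) and E-selectin (Sele), displayed by activated endothelium, catch the sugar-coated ligand PSGL-1 (Selplg) and make the cell roll. Rolling cells then stop when their integrins, each a pair of an alpha and a beta chain, bind immunoglobulin-family ligands: the beta2 integrins LFA-1 (Itgal with Itgb2) and Mac-1 (Itgam with Itgb2) bind ICAM-1 (Icam1), and alpha4 integrins (Itga4 with Itgb1 or Itgb7) bind VCAM-1 (Vcam1). In brain, microglia, the resident macrophages, also carry Mac-1 and PSGL-1, and astrocytes and other cells can make ICAM-1 and VCAM-1, so in a piece of tissue none of these genes belongs to 1 cell type. In bulk tissue, fewer cells of a type and less RNA per cell cannot be told apart.

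Sele (GRCm38 chr1:164048234-164057677) and Selp (chr1:164115264-164150026) are neighbours on the plus strand, and their promoters are shown because the counts of both genes moved together in single mice. Each sequence runs 5′ to 3′ over 300 bases, the last 50 of them after the start site (RefSeq, GRCm38.p6), with the AP-1 motif TGANTCA in capitals.
Sele promoter, chr1:164047984-164048283, plus strand: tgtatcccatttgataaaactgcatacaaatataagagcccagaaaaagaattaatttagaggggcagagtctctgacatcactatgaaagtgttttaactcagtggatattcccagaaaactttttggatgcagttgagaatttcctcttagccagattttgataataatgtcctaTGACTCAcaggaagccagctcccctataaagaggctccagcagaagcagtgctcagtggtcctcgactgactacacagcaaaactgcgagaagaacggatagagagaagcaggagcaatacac
Selp promoter, chr1:164115014-164115313, plus strand: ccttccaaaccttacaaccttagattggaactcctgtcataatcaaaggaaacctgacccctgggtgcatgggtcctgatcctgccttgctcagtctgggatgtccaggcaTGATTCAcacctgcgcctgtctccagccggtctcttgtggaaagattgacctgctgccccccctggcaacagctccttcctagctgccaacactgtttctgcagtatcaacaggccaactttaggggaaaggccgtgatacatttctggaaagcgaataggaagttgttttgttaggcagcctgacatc
The match began 73 bases before the start site of Sele and 139 bases before that of Selp. A search of both strands found this motif in 7.81% of 32851 mouse promoters of the same 300 bases. Itgam (chr7:128062640-128118491, plus strand) is shown as the integrin gene of highest level per length in Sham, with the PU.1 core GAGGAA, or TTCCTC where it lies on the other strand, in capitals.
Itgam promoter, chr7:128062390-128062689, plus strand: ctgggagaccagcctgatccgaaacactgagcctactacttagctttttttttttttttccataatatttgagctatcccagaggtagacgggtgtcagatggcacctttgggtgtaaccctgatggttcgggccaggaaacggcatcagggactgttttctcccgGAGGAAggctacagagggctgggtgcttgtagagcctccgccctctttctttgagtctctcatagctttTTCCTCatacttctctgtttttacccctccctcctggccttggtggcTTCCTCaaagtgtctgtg
The 3 matches compare with 28.28% of all promoters that hold at least 1, and the motif was present in 3 of the 6 members with an entry. The NF-kappaB motif was in 4.51% of promoters and in 0 of these 6, and the STAT6 motif, TTC and GAA spaced by 4 bases, in 6.95% and in 0 of 6. A match is a description of letters in this window and was not tied to any measurement. The NF-kappaB search used 1 consensus, and a count of 0 does not exclude sites that differ from a motif in some letters. Vcam1, Selplg, Itgal and Itgb2 were not searched.

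Per transcript length, the 10 genes spanned a wide range in Sham. Selplg stood at 23.7 ± 2.23 TPM (SD, n = 5), Vcam1 at 18.5 ± 2.35, Itgam at 12.6 ± 3.68 and Itga4 at 8.71 ± 3.15. Itgb2, the beta chain that both LFA-1 and Mac-1 need, was lower at 3.50 ± 1.49 TPM, followed by Icam1 at 2.01 ± 1.06, Itgb7 at 0.792 ± 0.349 and Itgal at 0.593 ± 0.127. The selectins came last, Selp at 0.223 ± 0.336 and Sele at 0.193 ± 0.346 TPM. The ranges over mice overlapped between Selplg and Vcam1, between Vcam1 and Itgam, between Itgam and Itga4, between Itga4 and Itgb2, between Itgb2 and Icam1, between Itgb7 and Itgal, between Itgal and Selp and between the 2 selectins, so with all mice the ranges do not set those neighbours apart. Within each of the 5 mice, though, Selplg stood above Vcam1, Vcam1 above Itgam, Itga4 above Itgb2 and Itgb2 above Icam1. Without replicate 4, which stood apart from its group, the ranges overlapped only between Itgam and Itga4, between Itgb7 and Itgal and between the selectins. In mice given IL-4 MSCs at 1 wpi the order was the same with 1 exchange: Itgb2 reached 21.4 ± 3.75 TPM and stood above Itga4, at 8.43 ± 1.21 TPM, in every mouse.

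Some libraries stood apart, and the results below are given with and without them where it matters. In replicate 4 of Sham, Selp had 42 counts and Sele 35, where the other 4 Sham mice had at most 5 and 3. In replicate 4 of MSCs at 3 wpi, Selp had 289 counts and Sele 119, against at most 16 and 2 in its group, and all 10 genes were highest of the group in this mouse (8 of 10 in replicate 4 of Sham). Both libraries were also high for Lcn2, which encodes the acute-phase protein lipocalin-2: 7.22 CPM in the Sham mouse against at most 0.302 in the others, and 103.5 CPM in the MSC mouse against at most 0.974. Of the 20 genes by which each of the 2 libraries most exceeded its group, 6 were shared (30% of each list): Lcn2, Sele, Selp, Cxcl1, Serpina3f and Scgb3a1. The MSC library further held 19.2 CPM of Slc6a5 and 19.4 CPM of Fat2, against at most 1.32 and 3.35 in its group. Both genes were also high in single mice of other groups. Slc6a5 reached 12.55 CPM in Sham and 6.81 in PBS at 3 wpi, and Fat2 reached 8.05 and 9.86. Whether an event outside the study's treatments or the piece of tissue cut set the 2 replicates 4 apart was not tested. Replicate 2 of PBS and replicate 2 of MSCs at 1 wpi departed from their groups as well. They exceeded every group mate by at least 1 on the log2 scale in 61 and 68 genes, beside 38 in replicate 4 of Sham. The widest gaps were 4.3 (Clec4e) and 6.1 (Cxcl2), beside 4.3 (Lcn2) in that Sham mouse. Of the 10 genes, 7 and 8 were highest of the group in them. S100a8, a neutrophil and monocyte gene, stood at 4.50 and 5.15 CPM there, against at most 1.05 and 1.15 in their groups. These 2 libraries are not among those called apart below, which are replicate 4 of Sham and replicate 4 of MSCs at 3 wpi.

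**Figure D1:**
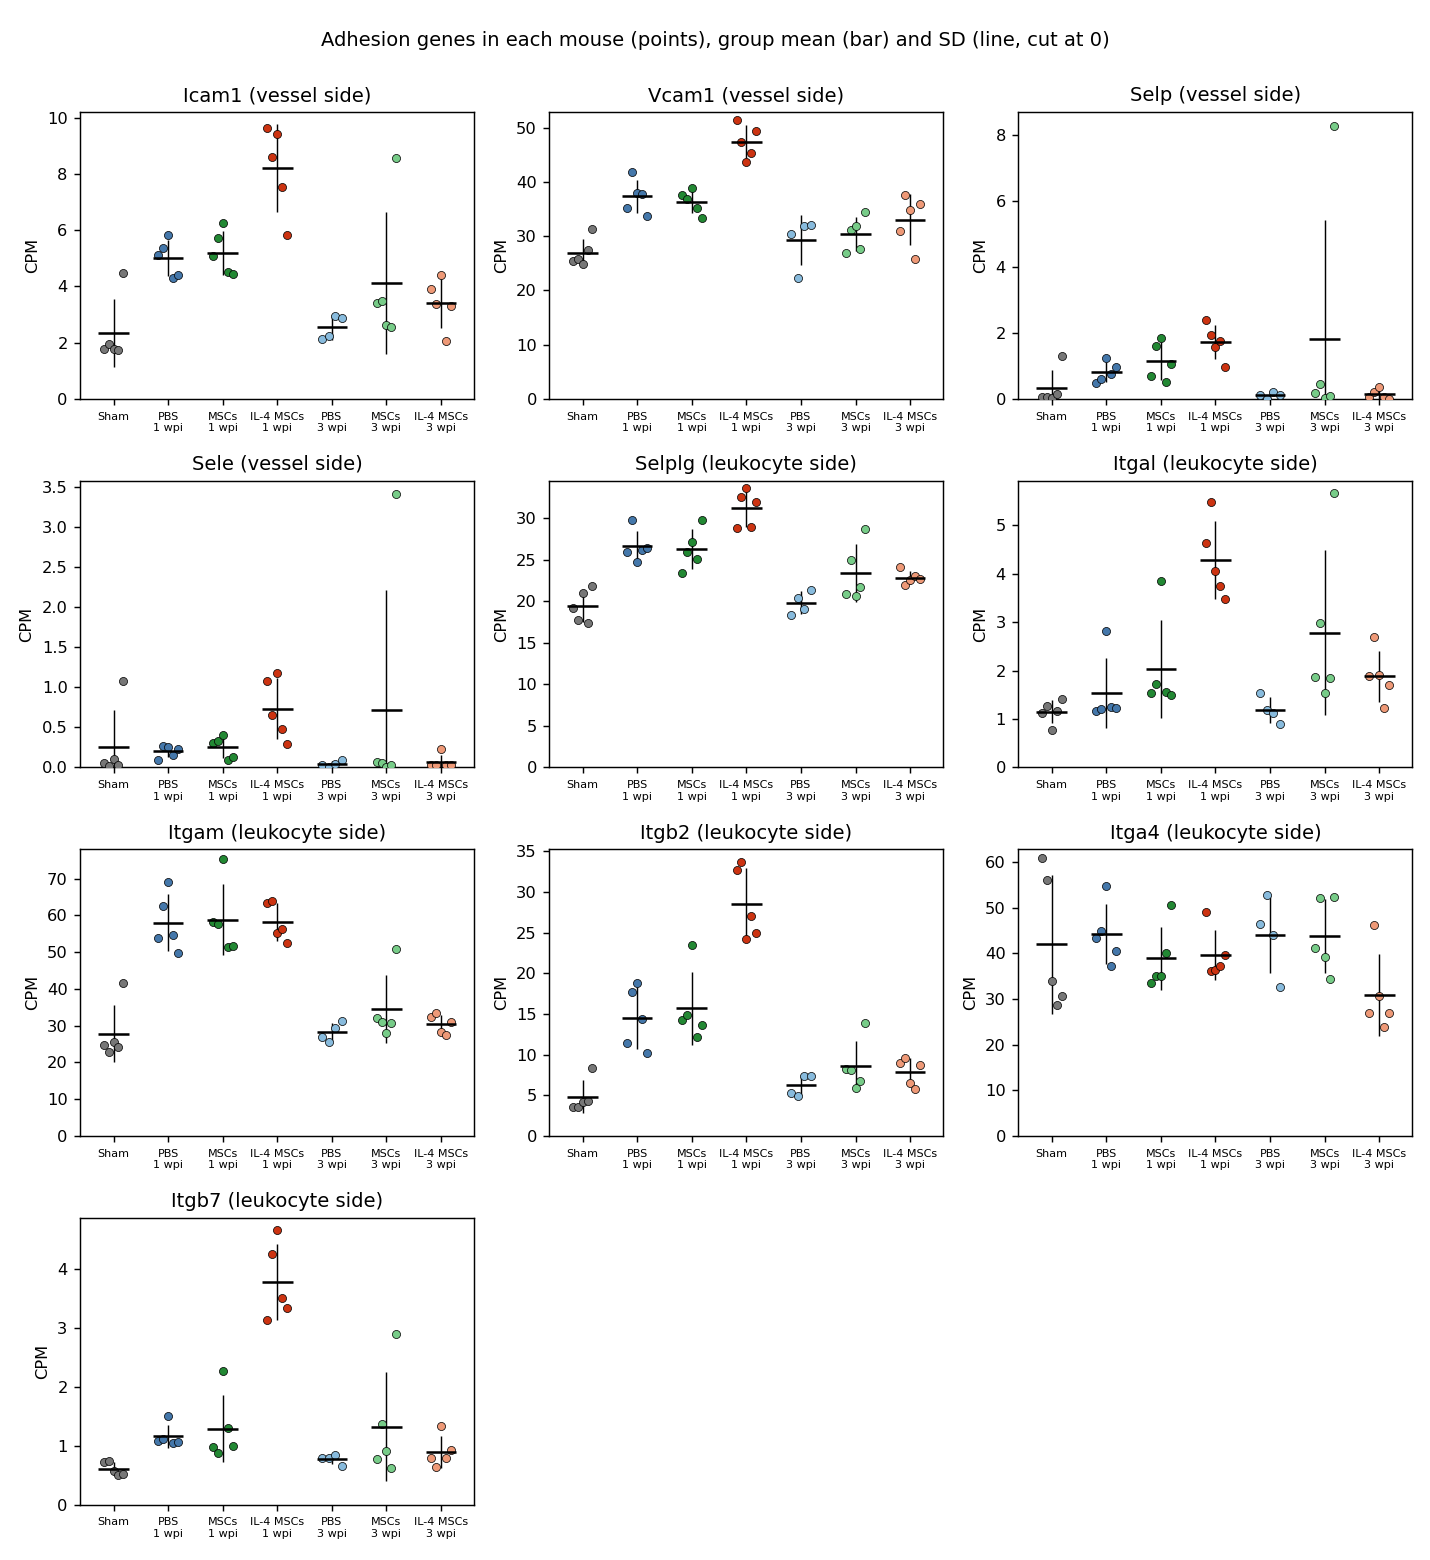
CPM of the 10 genes (vertical axes, each from 0) in each mouse (points) of the 7 groups, with the group mean (bar) and SD (line, cut at 0). Itgb2 and Itgb7 in the 5 mice given IL-4 MSCs at 1 wpi, from 24.3 and 3.13 CPM upwards, lie above every mouse of every other group, while Itga4 overlaps throughout.

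The first question was what injury and injection did to these genes within a week. At 1 wpi, 6 of 10 were higher than in Sham after PBS (Icam1, Vcam1, Selplg, Itgam, Itgb2 and Itgb7), the same 6 after MSCs, and 8 after IL-4 MSCs, which added Selp and Itgal. None was lower. Among all genes tested, 8.73% were higher and 5.03% lower after PBS, 11% and 6.89% after MSCs, and 18.4% and 18.5% after IL-4 MSCs. The median log2 fold change of the 10 genes was 0.69, 0.95 and 1.67, beside -0.01, -0.01 and -0.02 over all genes tested. In 5, 6 and 7 of the 10 genes every injured mouse was above every Sham mouse, a pattern found in 6.54%, 8.44% and 15.4% of all genes. The 3 comparisons share the Sham mice, so they are given side by side and not as independent of each other.

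Itgb2 (chr10:77530252-77565708, plus strand), the common beta2 chain, was measured at 3.55, 3.59, 4.23, 4.33 and 8.37 CPM in Sham. It stood at 11.4, 17.8, 18.8, 14.4 and 10.2 CPM after PBS, at 14.3, 14.9, 23.5, 12.2 and 13.7 after MSCs, and at 32.7, 33.7, 24.3, 27.1 and 24.9 after IL-4 MSCs. Every injured mouse was above every Sham mouse, the highest Sham value being that of replicate 4, and the lowest IL-4 MSC mouse was above the highest PBS and MSC mice. The log2 fold change from Sham was 1.60 ± 0.239 (SE) after PBS, 1.71 ± 0.239 after MSCs and 2.57 ± 0.240 after IL-4 MSCs, a 5.95-fold difference (edgeR adjusted p = 1.22e-05, 3.00e-06 and 2.22e-10).

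Itgam, the alpha chain of Mac-1 and a microglial and myeloid gene, was at 24.7, 22.9, 25.6, 24.2 and 41.6 CPM in Sham. It rose to 49.7 to 69.2 CPM after PBS (median 54.8), 51.4 to 75.2 after MSCs (median 57.7) and 52.4 to 63.9 after IL-4 MSCs (median 56.3). No injured mouse overlapped with Sham, and the 3 injured groups lay over each other. The log2 fold changes were 1.06, 1.08 and 1.07 (adjusted p = 2.97e-06, 1.52e-06 and 4.25e-07). Reads of the read-through gene Gm49368, which overlaps Itgam, could be split with it. Itgam counts were fractional, by a tolerance of 0.001 from a whole number, in all 34 libraries, as were those of Vcam1 and Itga4.

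Itgal (chr7:127296260-127335138, plus strand), the alpha chain of LFA-1 carried by lymphocytes and other leukocytes, was low in Sham at 1.12, 1.28, 0.772, 1.18 and 1.42 CPM. After PBS 4 mice stood at 1.17 to 1.26 CPM, inside the Sham range, and replicate 2 at 2.83. After MSCs 4 mice stood at 1.497 to 1.73 CPM and replicate 2 at 3.84, and after IL-4 MSCs the values were 4.64, 5.48, 4.07, 3.75 and 3.48. The MSC and IL-4 MSC mice were all above Sham, the latter with a log2 fold change of 1.89 ± 0.316 (adjusted p = 1.45e-05), whereas the PBS and MSC values, 0.40 and 0.82, missed the threshold (adjusted p = 0.497 and 0.0807).

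Itgb7 (chr15:102215995-102231944, minus strand), the beta chain that pairs with Itga4 or Itgae, was at 0.716, 0.738, 0.570, 0.495 and 0.525 CPM in Sham and at 1.08, 1.11, 1.51, 1.04 and 1.06 after PBS. It was at 0.985, 0.880, 2.27, 1.31 and 0.998 CPM after MSCs and at 3.13, 4.25, 4.65, 3.51 and 3.34 after IL-4 MSCs. All injured mice were above Sham, and the 5 IL-4 MSC mice were above all others. The log2 fold changes were 0.91, 1.07 and 2.62 (adjusted p = 0.0490, 0.0134 and 1.28e-08), the last a 6.14-fold difference. The PBS call passed in 0 of 10 fits that each left out 1 mouse, and against the 2 Sham mice of week 1 alone neither the PBS value (0.65) nor the MSC value (0.82) passed.

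Itga4 (chr2:79255426-79333123, plus strand), the alpha partner of Itgb7 in the gut-homing integrin and of Itgb1 in VLA-4, was at 60.8, 55.9, 34.0, 28.6 and 30.6 CPM in Sham and at 49.1, 36.0, 36.4, 37.2 and 39.7 after IL-4 MSCs. It ranged from 37.2 to 54.8 CPM after PBS and from 33.6 to 50.6 after MSCs. All groups overlapped, and within Sham the 2 mice collected at week 1 were well above the 3 collected at week 3. Genes of striatum, a region next to the labelled cortex, ran the other way in those mice, at a summed 139 and 134 CPM at week 1 and 512, 549 and 621 at week 3. The log2 fold changes of Itga4 from Sham were 0.07, -0.12 and -0.09 after PBS, MSCs and IL-4 MSCs, none past the threshold. With only the 2 Sham mice of week 1, Itga4 was lower after MSCs (-0.60, adjusted p = 0.0381) and IL-4 MSCs (-0.56, adjusted p = 0.0303), and with a striatum score in the fit the value after IL-4 MSCs was 0.16. The week of collection and the piece of tissue cut cannot be told apart in Sham.

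Selplg (chr5:113818536-113832644, minus strand), the selectin ligand PSGL-1, ranged from 17.4 to 21.8 CPM in Sham (median 19.2), 24.7 to 29.8 after PBS (median 26.2), 23.4 to 29.8 after MSCs (median 26.0) and 28.8 to 33.7 after IL-4 MSCs (median 31.96). The Sham range lay below the others, with log2 fold changes of 0.46, 0.43 and 0.68 (adjusted p = 9.42e-05, 1.31e-04 and 1.73e-08).

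On the vessel side, Icam1 (chr9:21015985-21028817, plus strand), the ligand of the beta2 integrins, was at 1.78, 1.94, 1.78, 1.73 and 4.48 CPM in Sham. It was at 5.13, 5.36, 5.81, 4.303 and 4.397 CPM after PBS, at 5.09, 5.74, 6.25, 4.52 and 4.43 after MSCs, and at 9.63, 8.60, 9.42, 7.52 and 5.84 after IL-4 MSCs. The PBS and MSC mice overlapped with Sham only through its replicate 4. The log2 fold changes were 1.10 ± 0.274, 1.16 ± 0.273 and 1.81 ± 0.271 (adjusted p = 0.00549, 0.00256 and 2.42e-06).

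Vcam1 (chr3:116109949-116129688, minus strand), the ligand of alpha4 integrins, moved less but with little spread: 25.4, 25.8, 24.8, 27.5 and 31.2 CPM in Sham, and 51.4, 47.4, 43.7, 45.3 and 49.4 after IL-4 MSCs. After PBS it ranged from 33.8 to 41.9 CPM and after MSCs from 33.3 to 38.9. None of the 3 injured groups overlapped with Sham, and the IL-4 MSC mice were above all PBS and MSC mice. The log2 fold changes were 0.47 ± 0.0926, 0.43 ± 0.0926 and 0.81 ± 0.0923 (adjusted p = 4.84e-04, 9.40e-04 and 1.32e-08).

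**Figure D2:**
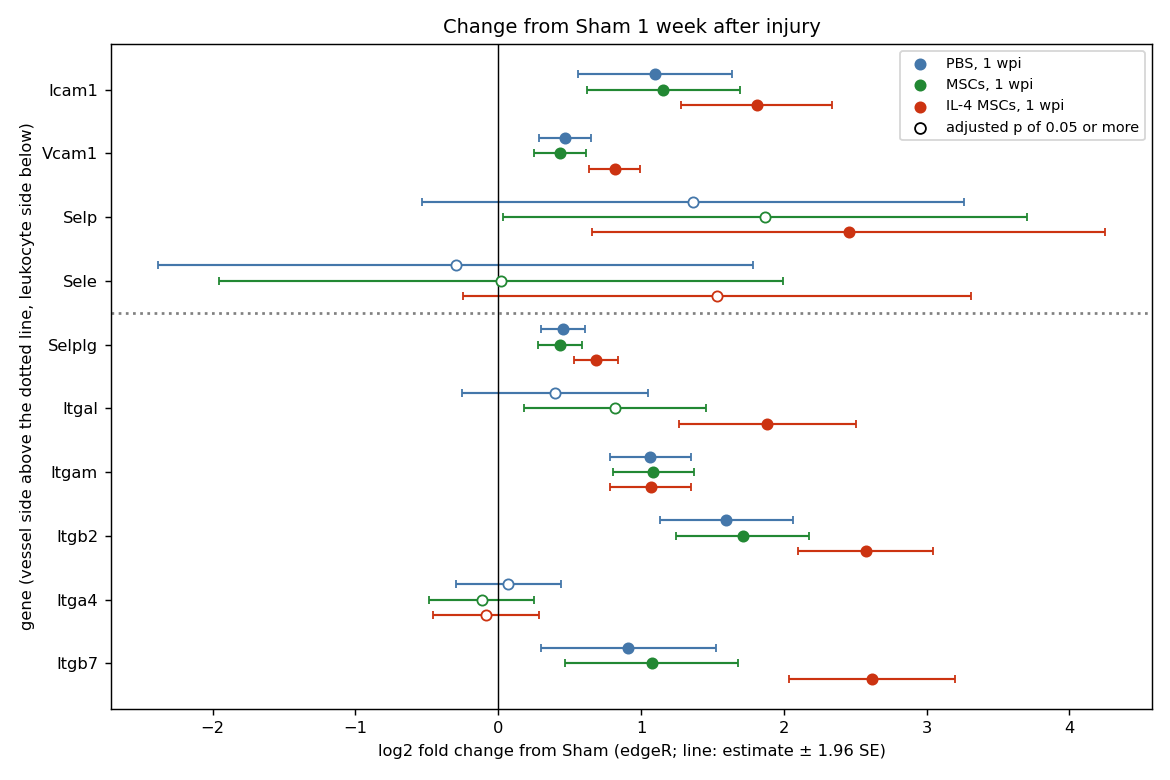
Log2 fold change from Sham at 1 wpi (horizontal axis) for each gene (rows) after PBS, MSCs and IL-4 MSCs, with the 95% interval as a line and an open point where the adjusted p missed the threshold. Itgam sits at 1.06 to 1.08 after all 3 treatments, while Itgb2 moves from 1.60 to 2.57 and Itgb7 from 0.91 to 2.62.

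The selectins had the fewest counts and rested most on single libraries. Selp had 2, 2, 1, 5 and 42 counts in Sham, 15, 25, 39, 24 and 33 after PBS, 25, 53, 69, 16 and 34 after MSCs, and 73, 71, 56, 59 and 33 after IL-4 MSCs. Apart from replicate 4, every Sham mouse was below every injured mouse at 1 wpi. With that mouse in, the log2 fold changes of 1.36 and 1.87 after PBS and MSCs missed the threshold, and the value of 2.45 after IL-4 MSCs passed it (adjusted p = 0.0343) but did so in 3 of 10 fits that left out 1 mouse. Without replicate 4 of Sham alone, Selp passed after MSCs (3.91, adjusted p = 0.0202) and IL-4 MSCs (4.51, adjusted p = 0.00257) and missed the threshold after PBS (3.40, adjusted p = 0.0662). With both libraries that stood apart left out, of which replicate 4 of MSCs at 3 wpi belongs to none of these groups, an alternative chosen after seeing the data, Selp passed after all 3 treatments, at 3.41, 3.92 and 4.53 (adjusted p = 6.39e-04, 5.08e-05 and 1.24e-06), values that set 15 to 73 counts against 1 to 5.

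Sele had 2, 1, 3, 1 and 35 counts in Sham, 3, 11, 8, 5 and 8 after PBS, 11, 11, 15, 3 and 4 after MSCs, and 33, 24, 42, 16 and 10 after IL-4 MSCs. The 4 other Sham mice were at or under 3 counts, and each IL-4 MSC mouse was above them. None of the 3 comparisons passed with all libraries (adjusted p = 0.909, 0.992 and 0.199). The log2 fold changes were -0.298 after PBS and 0.020 after MSCs with all libraries. Without replicate 4 of Sham alone, Sele passed after IL-4 MSCs (3.77, adjusted p = 0.0108). It did not pass after MSCs (2.245, adjusted p = 0.274) or PBS (1.922, adjusted p = 0.414). Without both libraries the change after IL-4 MSCs passed (adjusted p = 5.82e-06) and so did that after MSCs (adjusted p = 0.0176). Without replicate 4 of Sham alone 5, 7 and 9 of the 10 genes were higher than Sham after PBS, MSCs and IL-4 MSCs, beside 8.28%, 10.7% and 19.1% of all genes. Itgb7 after PBS then missed the threshold (adjusted p = 0.0955), as in each of the 10 fits without 1 mouse. Without both libraries 7, 9 and 9 were, beside 9.06%, 11.8% and 20.2% of all genes.

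**Figure D3:**
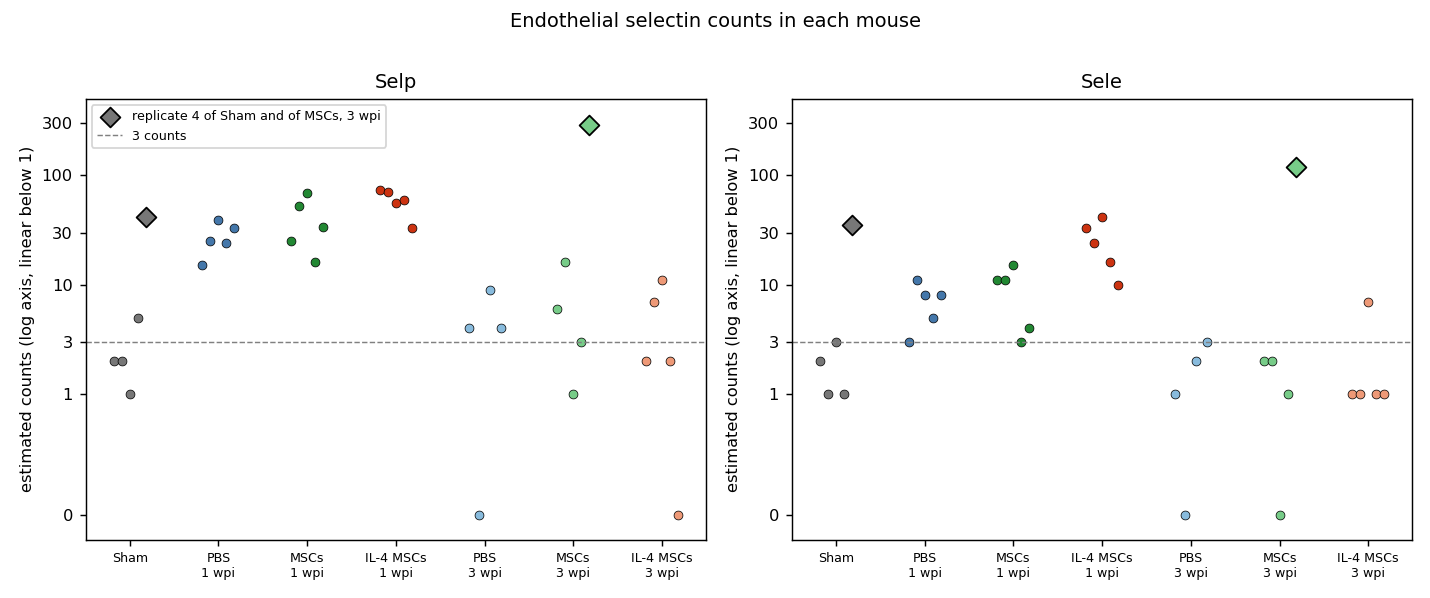
Estimated counts of Selp and Sele (vertical axes, logarithmic above 1 count) in each mouse of the 7 groups, with a dashed line at 3 counts and diamonds for replicate 4 of Sham and of MSCs at 3 wpi. The diamonds lie at 42 and 289 counts of Selp and at 35 and 119 counts of Sele, where their group mates have at most 5, 16, 3 and 2.

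The next question was whether the treatments differed from each other at 1 wpi. Against PBS, IL-4 MSC mice were higher in 5 of 10 genes: Itgb7 by 1.71 on the log2 scale (3.27-fold), Itgal by 1.48 (2.80-fold), Itgb2 by 0.97 (1.97-fold), Vcam1 by 0.34 (1.27-fold) and Selplg by 0.23. The adjusted p-values were 2.48e-05, 6.92e-04, 0.00167, 0.00731 and 0.0392 in that order, and 11.2% of all genes were higher. In 6 of the 10 genes, Icam1 and Sele among them, the 5 IL-4 MSC mice were above all PBS mice, a pattern found in 9.63% of all genes. Against MSCs, the same 5 were higher, by 1.54, 1.07, 0.86, 0.38 and 0.25 (adjusted p = 1.24e-04, 0.0189, 0.00797, 0.00434 and 0.0381), beside 7.66% of all genes, and in 3 of the 10 the groups did not overlap (7.34% of all genes). These comparisons share the IL-4 MSC mice. The Selplg calls passed in 5 of 10 fits without 1 mouse in either comparison, and the Itgal call against MSCs in 6 of 10.

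Itgam was not separated in either comparison, with a log2 difference of 0.00 from PBS (95% interval -0.27 to 0.28) and of -0.02 from MSCs (-0.29 to 0.26). For Icam1 the excess of 0.71 over PBS had an adjusted p of 0.0515, although the 5 IL-4 MSC mice were above all PBS mice. Without both libraries that stood apart, chosen after seeing the data, Icam1 passed against PBS (0.74, adjusted p = 5.85e-04) and against MSCs (0.67, adjusted p = 0.00218). Sele passed in both as well (adjusted p = 0.00204 and 0.0122). That made 7 of 10 genes higher against PBS (13.6% of all genes) and 7 against MSCs (9.14%). The libraries left out belong to none of the groups compared, but the fit shares its estimate of the spread over all groups. In fits that left out 1 mouse of the groups compared, Icam1 passed in 1 of 10 against PBS and 0 of 10 against MSCs. Sele passed in 0 of 10 in both. MSCs and PBS differed in 0 of 10 genes by edgeR and by DESeq2, beside 0.123% of all genes, with log2 differences from -0.19 to 0.51. An unadjusted p under 0.05 was reached by 0 of the 10 and by 774 of all genes.

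Because the chains of an integrin are made as pairs, their levels per length were set beside each other within each mouse. The ratio of Itgb2 to Itgam in TPM was 0.272 ± 0.0318 in Sham (SD, n = 5), 0.400 ± 0.0659 after PBS, 0.435 ± 0.0451 after MSCs and 0.799 ± 0.0797 after IL-4 MSCs at 1 wpi. The IL-4 MSC mice ranged from 0.7096 to 0.919, above the highest of the PBS and MSC mice, 0.469 and 0.501. At 3 wpi the ratios were 0.386, 0.420 and 0.418 after PBS, MSCs and IL-4 MSCs. The ratio of Itgb7 to Itga4 was 0.0940 ± 0.0287 in Sham and 0.407 ± 0.0912 after IL-4 MSCs at 1 wpi, against 0.165 after PBS and 0.197 after MSCs. At 3 wpi it was 0.0828, 0.123 and 0.177 after PBS, MSCs and IL-4 MSCs. The highest IL-4 MSC mouse at 3 wpi, 0.320, was above the lowest at 1 wpi, 0.285. The ratio of Itgb2 to Itgal, the chains of LFA-1, had another order: 5.91 ± 1.85 in Sham, 16.3 ± 4.64 after PBS, 12.8 ± 2.74 after MSCs and 11.6 ± 0.860 after IL-4 MSCs at 1 wpi. All injured mice of that week were above Sham in it, and the 3 injured groups overlapped. These ratios were not tested.

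**Figure D4:**
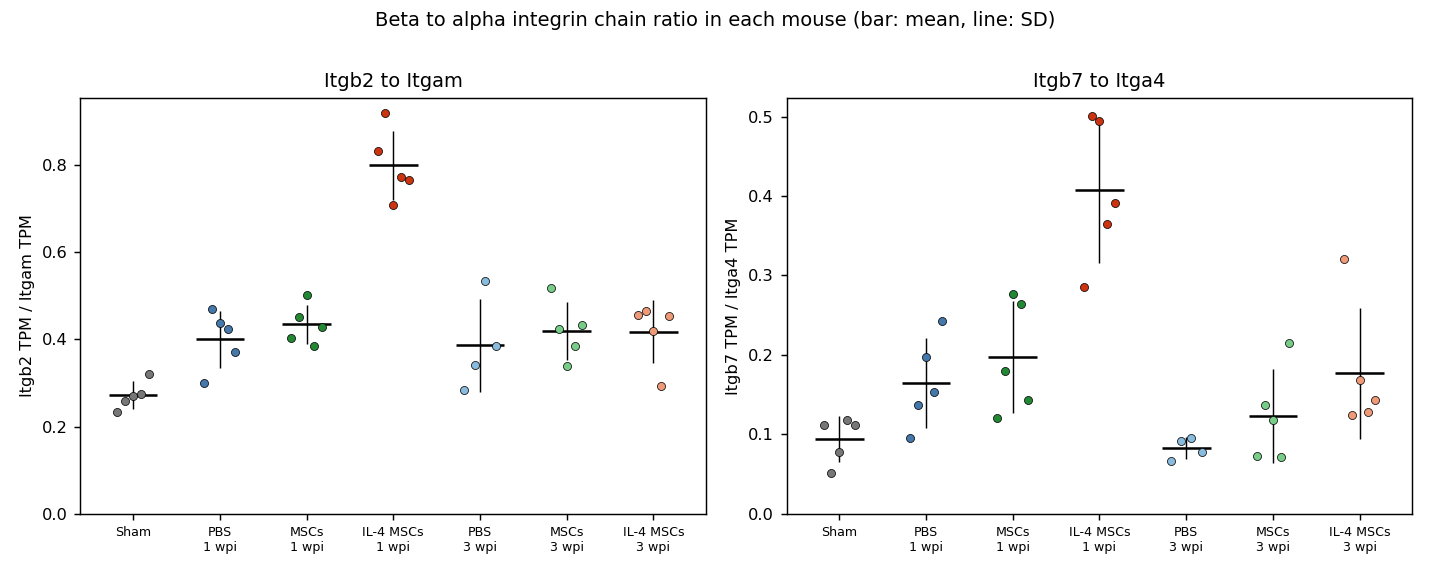
Ratio of Itgb2 to Itgam and of Itgb7 to Itga4 in TPM (vertical axes, from 0) in each mouse, with the group mean (bar) and SD (line). The IL-4 MSC mice at 1 wpi lie at 0.7096 to 0.919 for Itgb2 to Itgam, above every mouse of the other 6 groups, whose highest value is 0.534.

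At 3 wpi the median log2 difference of the 10 genes from Sham was 0.05 after PBS, 0.84 after MSCs and 0.26 after IL-4 MSCs, beside 0.69, 0.95 and 1.67 at 1 wpi. The median after MSCs was 0.15 without replicate 4 of that group. Without replicate 4 of Sham the medians were 0.20, 1.10 and 0.41 at 3 wpi and 1.06, 1.15 and 2.09 at 1 wpi. After PBS 0 of 10 genes differed by edgeR and by DESeq2, beside 0.0292% of all genes (at an unadjusted p under 0.05, 0 of the 10 and 914 of all), with Itgb2 at 5.24, 4.91, 7.33 and 7.43 CPM and Icam1 at 2.12, 2.23, 2.96 and 2.87. After MSCs edgeR called Itgal alone, higher by 1.27 ± 0.321 (adjusted p = 0.0396), beside 1.11% of all genes, while DESeq2 called 4, adding Itgb2, Itgb7 and Selplg (adjusted p = 0.0219, 0.0263 and 0.0494), beside 1.81% of all genes by that test. An unadjusted p under 0.05 by edgeR was reached by 7 of the 10 and 1885 of all genes. Itgal stood at 1.88, 2.98, 1.54, 1.85 and 5.67 CPM. All 5 values were above Sham (as in 1.66% of all genes), the highest in the library that stood apart. The call passed in 4 of 10 fits without 1 mouse, and without both libraries the value was 0.92 (adjusted p = 0.248), while Itgb2 then passed at 0.89 (adjusted p = 0.0481), beside 0.807% of all genes. Without replicate 4 of Sham alone, 6 of the 10 genes were higher after MSCs, beside 1.7% of all genes, and without replicate 4 of MSCs alone 0 were, beside 0.397%.

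After IL-4 MSCs at 3 wpi 0 of 10 genes passed by edgeR, beside 4.27% of all genes, and 5 of the 10 and 3408 of all genes had an unadjusted p under 0.05. DESeq2 called 2 of the 10, Itgb2 and Vcam1 (adjusted p = 0.0363 and 0.0403), beside 3.71% of all genes by that test. Itgb2 stood at 9.03, 9.58, 6.57, 5.81 and 8.68 CPM, above the Sham mice other than replicate 4, with a log2 difference of 0.73 (adjusted p = 0.0824). Without both libraries 4 genes were higher than Sham, beside 3.89% of all genes: Itgb2 by 1.01, Icam1 by 0.90, Vcam1 by 0.34 and Selplg by 0.27 (adjusted p = 0.00449, 0.00334, 0.0279 and 0.0161). Between treatments at 3 wpi, the single call was Selp, lower by 3.79 in IL-4 MSC than in MSC mice (adjusted p = 0.0372), beside 1.18% of all genes that were lower. It rested on replicate 4 of MSCs, without which the difference was -0.62 (adjusted p = 0.836). IL-4 MSCs and PBS differed in 0 of 10 genes, beside 2.94% of all genes (at an unadjusted p under 0.05, 2 of the 10 and 2895 of all). The count behind that share, 504 genes, was 8 with a striatal marker score in the fit and 0 with only these 2 groups in it, and the 732 genes behind the 4.27% against Sham were 115 and 102. MSCs and PBS differed in 0 of 10, beside 0.0817% of all genes (at an unadjusted p under 0.05, 6 of the 10 and 981 of all), and DESeq2 called 0 of 10 in both.

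Read within a treatment, the fall from 1 to 3 wpi was widest after IL-4 MSCs: 9 of 10 genes, all but Itga4, were lower at 3 wpi, beside 16.6% of all genes. Itgb7 fell from a mean of 3.78 to 0.895 CPM, a log2 change of -2.08 (adjusted p = 6.22e-07), and Itgb2 from 28.5 to 7.93 CPM (-1.85, adjusted p = 1.05e-07). Selp fell from 33 to 73 counts to 0 to 11, and Sele from 10 to 42 counts to 1 to 7 (adjusted p = 0.00637 and 0.0184). In each of these 9 genes no mouse at 3 wpi reached the lowest mouse at 1 wpi, a pattern seen in 13.9% of all genes.

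After PBS 5 of 10 genes were lower at 3 wpi, beside 4.9% of all genes: Itgb2 (-1.22), Itgam (-1.03), Icam1 (-0.97), Selplg (-0.43) and Vcam1 (-0.35). The Icam1 call passed in 2 of 9 fits without 1 mouse and the Vcam1 call in 5 of 9. After MSCs 2 were lower, Itgb2 (-0.87) and Itgam (-0.77), beside 4.93% of all genes. Without both libraries that stood apart this became 7, adding Icam1, Vcam1, Selp, Sele and Selplg, beside 7.04% of all genes.

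Whether a treatment difference itself changed between weeks was tested in the same fit. The excess of IL-4 MSCs over PBS was larger at 1 than at 3 wpi for Itgb7 (1.51, adjusted p = 0.0365), beside 3.93% of all genes, a call that passed in 8 of 19 fits without 1 mouse. The excess over MSCs was larger at 1 wpi for Itgb7 (2.12, adjusted p = 7.22e-04), Itgal (1.64, adjusted p = 0.0138), Selp (4.37, adjusted p = 0.0361) and Sele (4.94, adjusted p = 0.0311), beside 5.96% of all genes. Without both libraries Itgb7 alone passed in either (1.54 and 1.63, adjusted p = 0.00357 and 0.00188), beside 5.75% and 5.18% of all genes. Between MSCs and PBS 0 of 10 genes and 0% of all genes passed by edgeR, and 0 of 10 by DESeq2, with 3 of the 10 and 572 of all genes at an unadjusted p under 0.05.

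By side, the mean log2 CPM of the 4 vessel genes was 0.27 ± 0.94 in Sham (SD, n = 5), 1.32 ± 0.24 after PBS, 1.47 ± 0.40 after MSCs and 2.22 ± 0.36 after IL-4 MSCs at 1 wpi. That of the 6 leukocyte genes was 2.70 ± 0.17, 3.45 ± 0.23, 3.52 ± 0.26 and 4.16 ± 0.11. The means of both sides stood highest after IL-4 MSCs at 1 wpi, and the vessel side had the wider spread, set in Sham by replicate 4, without which the Sham means were -0.15 ± 0.10 and 2.65 ± 0.12 (n = 4). At 3 wpi the vessel means were 0.03 ± 0.47 (n = 4), 0.81 ± 1.42 and 0.23 ± 0.53 (n = 5 each) and the leukocyte means 2.87 ± 0.06, 3.28 ± 0.45 and 3.02 ± 0.16 after PBS, MSCs and IL-4 MSCs. Without replicate 4 of MSCs the means of that group were 0.20 ± 0.42 and 3.10 ± 0.22 (n = 4). Against Sham at 1 wpi, 2, 2 and 3 of 4 vessel genes and 4, 4 and 5 of 6 leukocyte genes were higher, beside 8.73%, 11% and 18.4% of all genes. Between IL-4 MSCs and PBS, 1 of 4 vessel genes and 4 of 6 leukocyte genes were higher, beside 11.2% of all genes. The counts and the sizes of change did not order the sides alike: the median log2 change from Sham at 1 wpi was 0.78, 0.79 and 1.67 for the vessel genes and 0.68, 0.95 and 1.48 for the leukocyte genes, and without replicate 4 of Sham 1.69, 1.89 and 2.98 against 0.68, 0.97 and 1.63. The gap between the leukocyte and the vessel mean was 2.44 ± 0.83 in Sham, 2.80 ± 0.21 without replicate 4, and at 1 wpi 2.13 ± 0.16 after PBS, 2.05 ± 0.32 after MSCs and 1.94 ± 0.29 after IL-4 MSCs. Replicate 4 had the smallest gap, 0.99, and the 4 other Sham mice, at 2.54 or more, were above all injured mice of that week, at 2.45 or less. The vessel medians without replicate 4 of Sham lay between Icam1 and Sele, at 1.46 and 1.92 after PBS and 2.195 and 3.77 after IL-4 MSCs. Sele was at 3 counts or fewer in the 4 other Sham mice. It missed the threshold after PBS and MSCs (edgeR adjusted p = 0.414 and 0.274). Both selectins also enter the gap between the sides. A difference between the sides was not tested.

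Other genes of the same steps were counted from 2 lists. On the vessel side, 13 of 14 genes passed the filter: 2 were higher than Sham after PBS, 2 after MSCs and 7 after IL-4 MSCs at 1 wpi, with 0, 0 and 2 lower. Of all genes, 8.73%, 11% and 18.4% were higher and 5.03%, 6.89% and 18.5% lower, so the 2 of 13 genes after PBS and after MSCs are near the share over all genes. Their median log2 change after IL-4 MSCs was 0.32, beside -0.02 over all genes tested. Glycam1, which encodes a secreted mucin, rose after all 3 treatments (3.60, 3.60 and 3.23), as did the junction molecule F11r (0.44, 0.53 and 0.80). The junction molecule Pecam1 rose by 1.16 and Icam2, a second ligand of LFA-1, by 0.79 after IL-4 MSCs, where the PBS values were 0.01 and -0.19 and missed the threshold.

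On the leukocyte side, 8, 11 and 13 of 16 genes were higher than Sham at 1 wpi after PBS, MSCs and IL-4 MSCs and 0 were lower, beside the same 8.73%, 11% and 18.4% of all genes higher, with medians of 0.77, 0.81 and 1.33. Itgax, the alpha chain that pairs with Itgb2 in CR4, rose most: by 2.65, 3.29 and 4.07 at 1 wpi, and it was still higher at 3 wpi, by 2.38, 2.94 and 3.05 (adjusted p = 0.0413, 1.28e-04 and 1.46e-04). Cd44, a hyaluronan receptor, rose by 1.78, 1.77 and 2.66. Spn, the leukocyte sialomucin CD43, rose by 2.51 after IL-4 MSCs. Against PBS, 12 of 16 leukocyte genes and 6 of 13 vessel genes were higher after IL-4 MSCs, beside 11.2% of all genes.

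Markers of the cells that could carry these genes moved in some groups and not in others, and the part of those that moved was not tested. The summed CPM of 7 endothelial genes was 245 ± 10.6 in Sham, 230 ± 13.6 after PBS, 246 ± 25.3 after MSCs and 321 ± 27.5 after IL-4 MSCs at 1 wpi, with Flt1 the most abundant and 0, 0 and 5 of 7 higher than Sham. After PBS and MSCs no endothelial marker was called, while Icam1 and Vcam1 were higher. Whether endothelial cells had a part in that rise was not tested. The sum of 6 monocyte and macrophage genes was 19.4 ± 5.93, 62.3 ± 18.4, 72.5 ± 15.6 and 262 ± 47.6, with 4, 5 and 6 of 6 higher and Lyz2 the most abundant. Ly6c2, which marks inflammatory monocytes, was at 3 counts or fewer in every Sham mouse. The sum of 6 microglial genes was 186 in Sham and 283, 282 and 299 after PBS, MSCs and IL-4 MSCs, with 5 of 6 higher in each.

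T-cell genes summed to 7.55 CPM in Sham, 6.19 after PBS, 7.02 after MSCs and 8.42 after IL-4 MSCs at 1 wpi, with 0, 0 and 4 of 6 higher than Sham, 1 lower after PBS, and Cd3g and Cd2 at 3 counts or fewer in all Sham mice. The neutrophil gene Ly6g was at 3 counts or fewer in every mouse of all 7 groups. Of 5 genes of mesenchymal stromal cells, 4 were higher than Sham after MSCs and after IL-4 MSCs at 1 wpi. After PBS, with no cells injected, 2 of them were higher as well: Col1a1 by 0.97 and Col3a1 by 1.42, against 2.61 and 3.71 after MSCs and 2.18 and 3.69 after IL-4 MSCs. Thy1, the most abundant of the 5, was lower after IL-4 MSCs (-0.18). The striatal genes summed to a mean of 391 CPM in Sham and 1135 after IL-4 MSCs at 3 wpi, with Ppp1r1b the most abundant, and Itga4 at 3 wpi had its lowest mean, 30.9 CPM, in that group.

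The genes whose 7 group means lay closest to a member, after centring, were Irf8, Rab20 and Hcls1 for Icam1 (root mean square difference 0.0526, 0.058 and 0.0599 on the log2 scale, among 14916 genes). For Vcam1 they were Man2b1, Exo1 and Dram1 (0.0399, 0.042 and 0.0466), and for Itgb2 Myo1f, Rab32 and Fcer1g (0.0444, 0.0894 and 0.0941). For Itga4, whose means spanned 0.54 on the log2 scale, they were Ubap1l, Gpc4 and Tunar (0.0374, 0.0439 and 0.0443). These are likenesses of 7 means that share the same mice.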

How the data were processed

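Of the RNA-sequenced mouse brain samples, 34 were analysed. 1 further PBS mouse at 3 wpi was left out by the study and is not analysed here. The authors trimmed reads with cutadapt 2.4, checked them with FastQC 0.11.8, quantified protein-coding GENCODE transcripts with kallisto 0.46 and compared groups with sleuth 0.30 in R 3.6.1. They deposited estimated counts per gene and TPM. They also deposited 63 columns of fold changes, p-values and q-values of their own comparisons, which were not used. Strand setting was not given in the sources used here. Reads of genes that overlap Vcam1 (Gm43109), Itga4 (Cerkl) or Itgam may be split with them. Other genes also overlap Selp (Gm16587, Gm16548) and Icam1 (Gm47079), but counts of Selp and Icam1 were whole in all 34 libraries, so they showed no split.

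Estimated counts were rounded and fitted with edgeR 4.0.16 (R 4.3.3, limma 3.58.1): TMM normalization, filterByExpr, the quasi-likelihood test, all 34 libraries in 1 fit with 7 groups and no block, Benjamini-Hochberg adjustment over 17131 genes, threshold 0.05. The contrasts were 15 comparisons and 3 differences between weeks. CPM used TMM-adjusted library sizes, and log2 CPM a prior count of 2. The tests were tested on simulated data, and no outcome of that is reported here. Replicates of a group differed by more than counting noise (chi-square per gene 3.23 to 51.0 over 66 pairs), so none was counted once. P-values weigh a difference between groups against the spread between mice, which was estimated in 1 fit over the 7 groups. Gene positions are from GENCODE M21 on GRCm38.

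All 10 members were named, with up to 4 called genes per companion list (14 vessel and 16 leukocyte genes), cell markers, and the 3 nearest patterns for 4 members. Members and lists were chosen with earlier results of these data known. Alternatives were DESeq2 1.42.0, library-size scaling, no filter, a replicate block, a striatum score, a size threshold, other sets of mice and each mouse left out. Markers of 12 cell types or regions were summed per mouse. Some single genes of these lists are not reported here.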

Additional observations from a re-analysis of the deposited data

Results flagged for a closer look

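Of the 70 sets formed by 10 genes in 7 groups, 17 held a mouse far from the rest of its group. A share of 0.05 would be 3.5 sets, a figure that assumes normal values and independent sets. Several of the 17 came from the same mice, so the 2 figures do not make a test. In replicate 4 of Sham the flagged genes were Icam1 at 4.48 CPM, Selp at 1.30, Sele at 1.08, Itgam at 41.6 and Itgb2 at 8.37. In replicate 4 of MSCs at 3 wpi they were Icam1 at 8.57 CPM, Selp at 8.28, Sele at 3.41 and Itgam at 51.0. In replicate 2 of MSCs at 1 wpi they were Itgal at 3.84 CPM, Itgam at 75.2 and Itgb2 at 23.5, and in replicate 2 of PBS at 1 wpi Itgal at 2.83 and Itgb7 at 1.51. The last 2 mice also held 4.83 and 4.08 CPM of Clec4e and 7.85 and 8.32 CPM of Acod1, myeloid genes that were at or under 0.383 and 0.433 CPM in their group mates. Single departures were Vcam1 in replicate 1 of PBS at 3 wpi, the lowest of its group at 22.4 CPM, Sele in replicate 2 of IL-4 MSCs at 3 wpi at 0.228 CPM (7 counts), and Itga4 in replicate 0 of IL-4 MSCs at 1 wpi at 49.1 CPM.

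In 5 tests a treatment difference changed between weeks (edgeR, adjusted over all genes). The excess of IL-4 MSCs over MSCs was larger at 1 wpi by 4.37 on the log2 scale for Selp, 4.94 for Sele, 1.64 for Itgal and 2.12 for Itgb7, and the excess over PBS by 1.51 for Itgb7. The Selp and Sele values rest on replicate 4 of MSCs at 3 wpi: without it they were 1.22 (adjusted p = 0.631) and 0.85 (adjusted p = 0.858). Itgal was 1.22 without it (adjusted p = 0.0539) and passed in 19 of 20 fits without 1 mouse. Without it and the Sham mouse that stood apart Itgb7 alone passed (1.63).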

How the results depend on the processing

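Over fits without 1 mouse, the number of the 10 genes called ranged from 0 to 6 for MSCs against Sham at 3 wpi, 0 to 4 for IL-4 MSCs against Sham at 3 wpi, 3 to 5 for IL-4 MSCs against MSCs at 1 wpi, 0 to 2 at 3 wpi, and 0 to 1 for IL-4 MSCs against PBS at 3 wpi. It ranged from 1 to 6 for 3 against 1 wpi after MSCs, 3 to 5 after PBS, and 1 to 6 and 0 to 1 for the change between weeks of IL-4 MSCs against MSCs and against PBS. For MSCs against Sham at 3 wpi it was 6 without replicate 4 of Sham and 0 without replicate 4 of MSCs, beside 1.7% and 0.397% of all genes higher. The share of all genes in each of the other fits is not given here. With all mice, 1.15%, 4.27%, 8.69%, 3.47% and 2.94% of all genes were called in either direction in the first 5 of these comparisons, in the order given. In the other 4 the shares were 6.15%, 5.51%, 7.86% and 4.72%.

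With an added log2 size of at least 1, 3 genes were called for PBS against Sham at 1 wpi, 2 for IL-4 MSCs against PBS and 2 against MSCs, and 2 and 0 for 3 against 1 wpi after PBS and MSCs, beside 2.42%, 2.87%, 2.14%, 1.27% and 1.21% of all genes in either direction. DESeq2 called 4 genes for MSCs and 2 for IL-4 MSCs against Sham at 3 wpi and 2 for IL-4 MSCs against MSCs at 3 wpi (1.92%, 6.05% and 5.03% of all genes). Only the groups compared in the fit gave 0 for MSCs against Sham at 3 wpi, as did same-week sham mice, and 0 for IL-4 MSCs against MSCs at 3 wpi (0.464%, 0.343% and 0 of all genes). Both libraries that stood apart left out (chosen after seeing the data) gave 4 for IL-4 MSCs against Sham at 3 wpi, 0 against MSCs, 7 for 3 against 1 wpi after MSCs, and 1 for the change between weeks against MSCs (6.69%, 1.47%, 7.89% and 5.76%). A striatum score gave 0 for IL-4 MSCs against MSCs at 3 wpi, and 0 and 1 for the change between weeks against PBS and MSCs (0.00584%, 4.86% and 6.63%). Medians in place of means gave leukocyte-side differences from Sham of 1.04, 1.08 and 1.65 at 1 wpi after PBS, MSCs and IL-4 MSCs and 0.50 at 3 wpi after IL-4 MSCs.

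Replicate numbers do not pair the mice: deviations of same-numbered mice had a median correlation of 0.0227 over 99 pairs, and 7 of 34 mice correlated best with their own number. A replicate block gave 1 call for IL-4 MSCs against Sham and 0 for IL-4 MSCs against MSCs at 3 wpi (5.32% and 4.47% of all genes).

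Some directions turned. Itga4 with a striatum score was 0.16 for IL-4 MSCs against Sham at 1 and at 3 wpi, 0.001 for 3 against 1 wpi, and 0.084 against MSCs and 0.18 against PBS at 3 wpi. Over fits without 1 mouse, Itga4 ranged from -0.18 to 0.12 after IL-4 MSCs and from -0.229 to 0.066 after MSCs against Sham at 1 wpi, and was above 0 without replicate 0 or 1 of Sham. Sele for MSCs against Sham at 1 wpi was -0.031 with DESeq2 and -0.308 to 2.245 without 1 mouse, the highest without replicate 4 of Sham. For PBS against Sham at 1 wpi Sele was -0.298 with all mice and -0.626 to 1.922 without 1 mouse, again highest without replicate 4 of Sham. The lowest or highest values of the other ranges came without replicate 4 of MSCs at 3 wpi: Sele -4.524 to 0.67 for IL-4 MSCs against MSCs at 3 wpi and -2.61 to 1.817 for 3 against 1 wpi, Selp -2.50 to 0.994 for 3 against 1 wpi and -0.62 to 4.589 for MSCs against Sham. Without both libraries these were 0.67, -2.61 and -2.50 in the first 3, and the third was -0.22 with a replicate block. The cause was not tested. Of 962 values of single genes without 1 mouse, 832 kept their direction and side of the threshold, as did 621 of 707 under the other settings. At this depth, Sele and Selp in most Sham and 3 wpi mice were near or under 3 counts.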

Other observations

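Other cell types were described by markers. Neutrophil genes summed to 9.17 CPM in Sham and 15.0 CPM after IL-4 MSCs at 1 wpi, where 1 of the 5 tested, Retnlg, was higher. Platelet genes summed to 2.67 CPM in Sham and 5.45 CPM after IL-4 MSCs at 1 wpi, where both tested genes were higher: Pf4, which encodes platelet factor 4 and is also made by macrophages, by 2.59 on the log2 scale and Itga2b, the platelet integrin alpha chain, by 0.43. B-cell genes summed to 0.392 and 0.867 CPM in the same groups, with 1 of 2 tested higher, Cd79b (1.74).

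Of 4 astrocyte genes, 3 were higher than Sham after IL-4 MSCs at 1 wpi, led by the reactive astrocyte gene Gfap (2.64), and Slc1a2, a glutamate transporter, was lower (-0.24). Of 4 neuronal genes, 3 were lower, with Snap25 at -0.31. Choroid plexus genes, led by Ttr, summed to 551 CPM in Sham and 1037 CPM after IL-4 MSCs at 3 wpi, with an SD of 312 and 415 over mice.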
